A study of Rattus norvegicus with 52 samples.

Results

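Dehydrated and LCM-reference-time sections of rat liver were examined for the effect of clofibric acid (CA) on RNA abundance. Of the 52 arrays of the series, 6 carry one of these names in their source label. There are 3 of dehydrated sections and 3 of LCM-reference-time sections. Within each preparation 1 array is from untreated rats, 1 from rats given 0.29% CA and 1 from rats given 0.54% CA, so 4 treated arrays were set against 2 untreated ones with the preparation as a block. All animals were F344 rats and all samples were total RNA. The labels give neither age, sex, route nor length of treatment, and they do not say what sets the LCM-reference-time sections apart. They also do not say how many animals gave each sample. The p-values therefore measure the spread between these arrays, part of which may be technical, and the 2 preparations stand in for replicates.

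CA is a fibrate, a class of lipid-lowering drugs that activate the nuclear receptor PPARα. In rodent liver, active PPARα switches on genes of peroxisomal, mitochondrial and microsomal fatty acid oxidation, and the peroxisomes multiply. Laser capture microdissection (LCM) lifts chosen cells from a tissue section under a microscope. Sections are usually stained and dehydrated before it, steps during which RNA can be lost or broken. The series, by its title, compares whole liver with liver taken by LCM. Entire sections, with 8 untreated arrays, 8 at 0.29% CA and 6 at 0.54% CA, are the comparison used below. The probe sets are named by their identifiers, because the table used here pairs none of them with a gene. For the same reason the liver origin of the sections could not be checked against marker genes.

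The untreated LCM-reference-time array had the fewest bright probe sets of the 6. It had 1416 probe sets with an intensity above 66, against 1685 to 2339 on the others. Its 50 brightest probe sets held 46.9% of the summed signal, where the other LCM-reference-time arrays had 35.8% at 0.29% and 27.4% at 0.54%, and the dehydrated arrays 17.4% to 22.2%. The Cre spike, a control added from outside the sample, read 44565 on it, 25121 and 16688 on the treated LCM-reference-time arrays and 4919 to 6342 on the dehydrated arrays. Its correlation with the other 5 arrays was 0.788 to 0.837 over normalized log2 values, while the dehydrated arrays correlated at 0.900 to 0.938 among themselves. The LCM-reference-time array at 0.29% correlated with the dehydrated arrays at 0.817 to 0.859, which overlaps the range of the untreated array.

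RNA quality measures also differed between the arrays. The GAPDH control probe sets for both transcript ends gave a 3'/5' ratio, which is higher where the 5' end gives less signal, of 6.36, 11.8 and 14.3 in dehydrated sections at 0, 0.29 and 0.54% CA. In LCM-reference-time sections it was 7.28, 3.12 and 4.70 in the same order. The median of the other 46 arrays was 3.97, over unlike preparations. Entire sections ranged from 1.18 to 6.49, stained ones from 2.59 to 18.9 and microdissected ones from 3.02 to 14.3. The actin 3'/5' ratio was 7.62, 5.48 and 12.3 in dehydrated and 3.69, 1.71 and 2.81 in LCM-reference-time sections. The ratio of 12.3 comes from a 3' reading of 49 and a 5' reading of 4, so it is poorly measured. Both ratios were lower on the treated than on the untreated array in LCM-reference-time sections. In dehydrated sections GAPDH was higher on both treated arrays, whereas actin was lower at 0.29% and higher at 0.54%. With 1 array per preparation and dose, array quality and treatment cannot be told apart within a preparation, and the part of these measures in the results below was not tested.

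**Figure D1:**
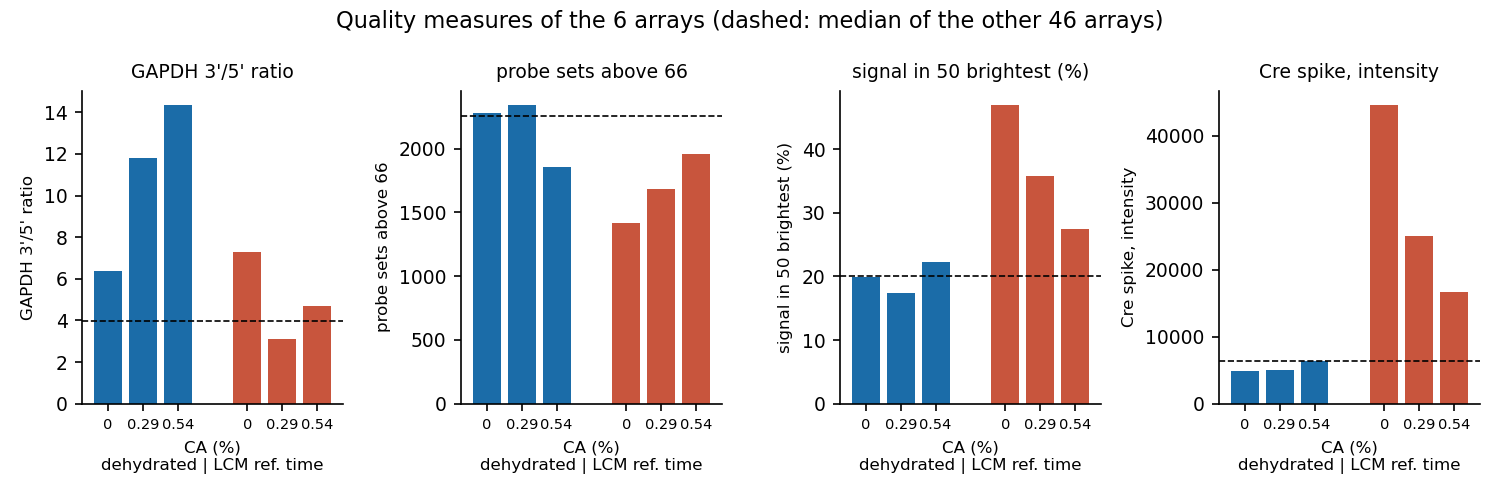
Quality measures of the 6 arrays by preparation and CA dose (bars, 1 array each; blue dehydrated, red LCM reference time), with the median of the other 46 arrays as a dashed line. The untreated LCM-reference-time array has the fewest probe sets above 66 (1416), the largest share of signal in the 50 brightest (46.9%) and the highest Cre spike (44565).

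The first comparison asked which probe sets differed between treated and untreated sections in both preparations. A small number of probe sets went from background to a clear signal on all 4 treated arrays, or from a clear signal towards background. The 4 described below had the same direction in entire sections. With the 6 arrays alone, limma called 1 of 7389 probe sets tested (0.0135%) at a Benjamini-Hochberg adjusted p under 0.05 with the same sign in both preparations. That fit has 3 residual degrees of freedom. At an unadjusted p under 0.05 there were 587 probe sets (7.94%), 329 higher and 258 lower with treatment.

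The called probe set, m38759_at, had an intensity of 0 on both untreated arrays. In dehydrated sections it read 291 at 0.29% and 177 at 0.54% CA, and the LCM-reference-time arrays read 149 and 193. All 4 treated arrays were far above both untreated ones. The deposited intensities had no order by dose that both preparations shared. After normalization the 0.29% array was slightly above the 0.54% array in both. The normalized log2 values were 7.96 and 7.71 in dehydrated and 8.04 and 7.94 in LCM-reference-time sections. Intensities under the floor of 4 were raised to it, so the size of the change depends on the floor. The log2 difference was 5.91 ± 0.40 (SE), with a limma adjusted p of 0.039, and 3.59 with a floor of 20. In entire sections the same probe set lay between -13 and -2 on 8 untreated arrays (median -11), between 264 and 426 at 0.29% (median 328.5) and between 140 and 301 at 0.54% (median 218). The call was lost without any single array other than the untreated dehydrated one, with limma adjusted p between 0.108 and 0.737, while the log2 difference stayed between 5.83 and 5.98.

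A second probe set, d43623_g_at, was also at background on both untreated arrays, reading 3 in dehydrated and -12 in LCM-reference-time sections. With 0.29 and 0.54% CA it read 263 and 275 on the dehydrated arrays, and 63 and 196 on the LCM-reference-time arrays. Treated and untreated arrays did not overlap, and the lowest treated value was that of the 0.29% LCM-reference-time array. Its log2 difference was 5.70 ± 0.54 (SE), 3.38 with a floor of 20, and the limma adjusted p was 0.108 on the 6 arrays.

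Among probe sets that were lower with CA, m93297cds_at read 172, 5 and 4 in dehydrated sections at 0, 0.29 and 0.54%. In LCM-reference-time sections it read 47, 6 and -2. Each treated array was at or near the floor, while both untreated arrays were above it. The log2 difference was -4.51 ± 0.52 (SE), with a limma adjusted p of 0.129, and its size too depends on the floor, at -2.53 with a floor of 20. Both untreated values lay far under those of entire untreated sections, whose median was 922.5.

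The other of the lower probe sets, rc_aa893325_at, stayed above the floor on all arrays. The dehydrated arrays read 712, 87 and 83 by rising dose, and the LCM-reference-time arrays 211, 16 and 30. Every treated array was below both untreated ones. The untreated LCM-reference-time array was well below the untreated dehydrated one in deposited intensity only. Their normalized log2 values were close, at 9.06 and 9.12. The log2 difference was -3.47 ± 0.56 (SE), with a limma adjusted p of 0.231. Entire sections had medians of 912, 92 and 70 at 0, 0.29 and 0.54%.

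**Figure D2:**
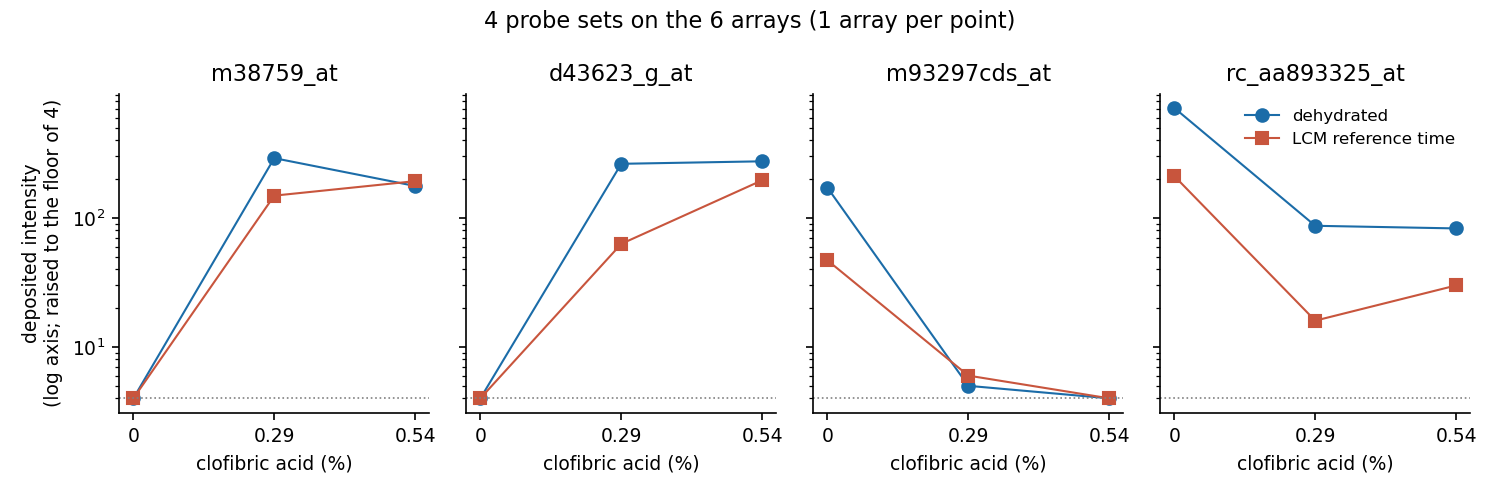
Deposited intensity (log axis, values raised to the floor of 4, dotted) of 4 probe sets against CA dose, 1 array per point, for dehydrated (blue) and LCM-reference-time (red) sections. The first 2 are at the floor on both untreated arrays and between 63 and 291 on the treated ones, and the other 2 are lower on every treated array.

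When the spread was taken from all 15 groups of the series, of which 7 are replicated, many more probe sets passed. This fit assumes that the 6 lone arrays vary like the replicated groups. Replicated groups under the floor are set to a single value and add no spread, which can make adjusted p very small. For m38759_at this holds for all 8 entire untreated arrays (-13 to -2). It called 850 probe sets, and the requirement of the same sign in both preparations removed 316 of them. The 534 left (7.23%) were 326 higher (4.41%) and 208 lower (2.81%), with median log2 differences of 1.69 and -1.52. At least 2-fold changes numbered 262 higher and 165 lower. Of the 534, 357 had treated and untreated arrays that did not overlap, beside 817 of all 7389 tested. Above the floor on all 6 arrays were 322, beside 3353 of all tested. The 4 probe sets described above passed, with adjusted p of 4.48e-18 for m38759_at, 1.36e-11 for d43623_g_at, 5.47e-07 for m93297cds_at and 0.000159 for rc_aa893325_at by limma.

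These counts rest on the 2 untreated arrays. Without 1 of them only the other preparation gives an effect, so the same-sign rule cannot apply and the counts compare with the 850. Without the untreated LCM-reference-time array, in dehydrated sections alone, 168 probe sets passed, 109 higher and 59 lower, and rc_aa893325_at did not (limma adjusted p 0.152). Without the untreated dehydrated array, in LCM-reference-time sections alone, 1238 passed, 569 higher and 669 lower. The split of directions also moved with the scaling, from 61.0% higher among the 534 to 81.1% higher among 280 on the deposited scale with each array centred on its median. Centring moved the median treatment difference of all probe sets tested to 0.20 on the log2 scale.

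The probe sets that passed were set against entire sections, which have their own untreated arrays. Of the 326 higher ones, 167 (51.2%) were called higher in entire sections at one dose or the other and 1 was called lower there. Among all 7389 probe sets tested, 9.62% were called higher in entire sections. Of the 208 lower ones, 128 (61.5%) were called lower in entire sections and 4 were called higher, beside 9.27% called lower among all tested. The entire-section arrays share no sample with the 6 arrays, but they contribute to the pooled spread and were normalized together with them. The labels do not say whether the preparations share animals.

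Counts that use no test were also taken. Treated and untreated arrays did not overlap for 817 probe sets (11.1%), with all 4 treated arrays above for 409 (5.54%) and below for 408 (5.52%). That count was thus even in direction, whereas the pooled fit called more higher than lower. With so few arrays, random order alone also gives many probe sets without overlap. The count by itself therefore shows no effect of CA. Probe sets at least 2-fold higher on every treated array than on the untreated array of the same preparation numbered 136 (1.84%), and 75 of these were called higher in entire sections, against 2 called lower. At least 2-fold lower on every treated array were 96 (1.3%), of which 39 were called lower in entire sections and 1 higher. A permutation of the arrays within preparations has 9 arrangements and so cannot reach 0.05, and none was run.

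The next question was how far the 2 preparations gave the same CA effect. Over all probe sets tested they gave it poorly. Of the 7389, 3118 (42.2%) had the same sign in both, 2891 had opposite signs, and 1380 had a difference of 0 in at least 1 preparation. Among the 6009 with a difference in both, 51.9% had the same sign. The correlation of the 2 effects was 0.025 (Spearman 0.024) across probe sets. Probe sets of 1 array share that array and are not separate replicates.

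Brighter probe sets were more alike. For the 2029 with a mean intensity of at least 66, the correlation was 0.29 (Spearman 0.24), and 1171 (57.7%) had the same sign. At least 2-fold in both preparations were 94 higher and 56 lower, and 49 were 2-fold in opposite directions. Within this set, LCM-reference-time sections had 357 probe sets at least 2-fold higher and 208 lower, and dehydrated sections had 193 higher and 277 lower. More probe sets were thus lower than higher in dehydrated sections, and the reverse held in LCM-reference-time sections. The median size of the effect was 0.53 in dehydrated and 0.57 in LCM-reference-time sections, on the log2 scale.

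The single treated arrays showed the same asymmetry. At 0.29% CA, 176 bright probe sets were at least 2-fold higher and 217 lower than the untreated array in dehydrated sections, and at 0.54% these were 265 and 335. In LCM-reference-time sections 360 were higher and 262 lower at 0.29%, and 431 and 211 at 0.54%. Arrays of 1 preparation share their untreated array, and the untreated LCM-reference-time array had the fewest probe sets above 66.

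Tested as an interaction, the CA effect differed between the preparations for 0 of 7389 probe sets (0%) by limma, with a smallest adjusted p of 0.0503. At an unadjusted p under 0.05 there were 1375 of the 7389, beside 587 for treatment, but these 2 counts rest on unlike spreads. The spread in the interaction fit is only the difference between doses within a preparation. In the treatment fit it also holds the interaction itself, so the counts do not rank the 2 effects. The interaction fit has 2 residual degrees of freedom, so the lack of calls does not show that the effects were alike. With a floor of 20 the interaction was called for 424 probe sets, and among those with a mean intensity of at least 66 for 4. The preparations themselves, with treatment accounted for, differed for 0 probe sets (0%) by limma, with a smallest adjusted p of 0.0616. At an unadjusted p under 0.05 there were 1330 of the 7389, 790 higher in dehydrated sections and 540 lower. On the centred deposited scale 337 passed and with a floor of 20 there were 86.

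**Figure D3:**
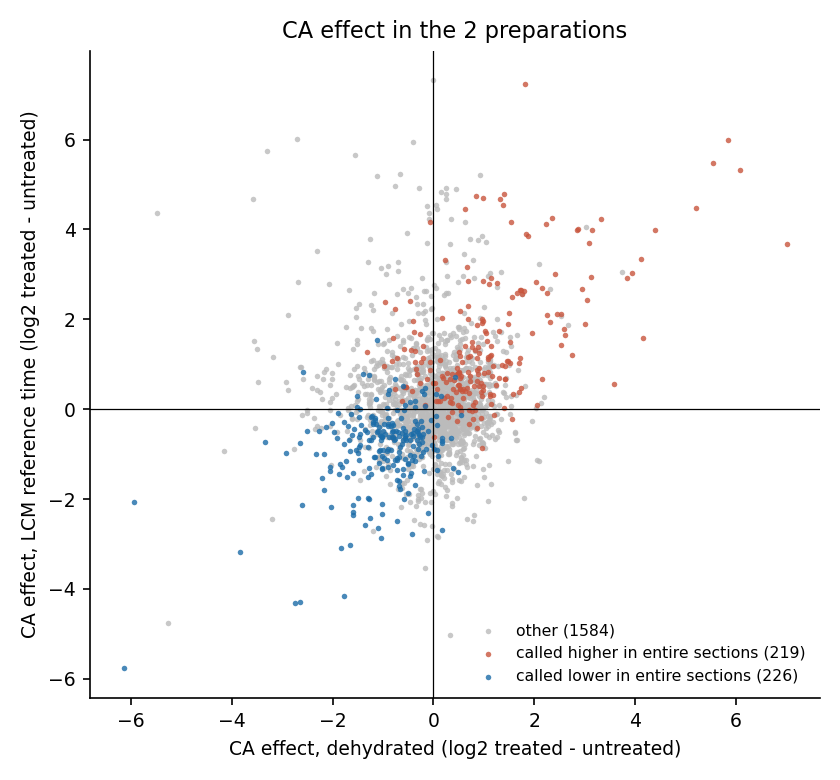
CA effect (log2 treated minus untreated) in LCM-reference-time sections against that in dehydrated sections, 1 point per probe set with a mean intensity of at least 66, coloured by calls at both doses in entire sections. The 219 called higher there lie mostly to the upper right and the 226 called lower mostly to the lower left, while the other 1584 spread around 0.

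Agreement with entire sections was then followed by the size of the change there. Entire sections had 340 of 7804 probe sets called higher (4.36%) and 351 called lower (4.5%) at both doses, of which 335 and 346 were measured on the 6 arrays. Of the 335 higher ones, 230 (68.7%) were higher in both preparations and 188 (56.1%) on all 4 treated arrays, and 8 were lower in both. Of the 346 lower ones, 239 (69.1%) were lower in both, 209 (60.4%) on all 4 arrays, and 7 were higher in both. Among all 7140 probe sets measured in both, 30.4% had the entire-section sign in both preparations and 17.7% on all 4 arrays.

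For the higher probe sets the share followed the size of the change. Of the 58 that were at least 4-fold higher in entire sections, 55 (94.8%) were higher in both preparations and 51 (87.9%) on all 4 treated arrays. The share in both was 66.4% of 110 at 2- to 4-fold and 61.1% of 167 under 2-fold. The median log2 change of the 58 was 2.99 in entire, 2.62 in dehydrated and 2.78 in LCM-reference-time sections.

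For the lower probe sets it did not. Of the 29 at least 4-fold lower in entire sections, 19 (65.5%) were lower in both preparations, beside 67.7% of 127 at 2- to 4-fold and 70.5% of 190 under 2-fold. Among the 10 of the 29 without the same sign, 8 had an untreated array at the floor, where a further fall cannot be measured. Their medians were -2.49 in entire, -2.04 in dehydrated and -2.35 in LCM-reference-time sections. Taken singly, dehydrated sections had the entire-section sign for 89.9% of the lower probe sets and LCM-reference-time sections for 76.6%, while for the higher ones these were 79.7% and 85.7%. Across the 7140, the effect correlated with that in entire sections at 0.44 in dehydrated and 0.25 in LCM-reference-time sections. These shares are descriptions and were not tested.

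**Figure D4:**
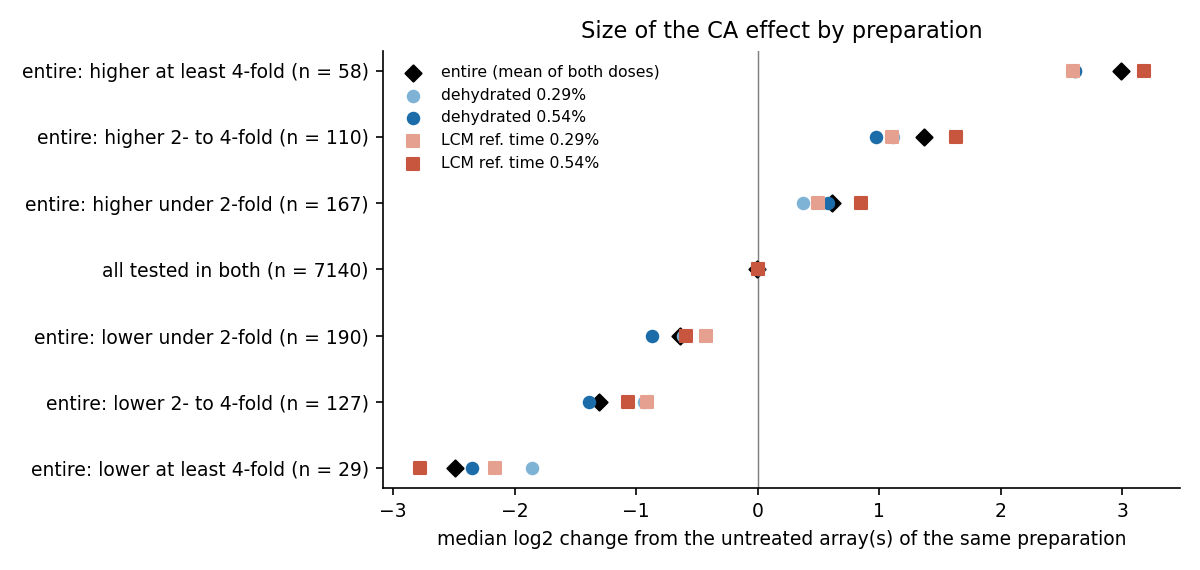
Median log2 change from the untreated array of the same preparation, for probe sets grouped by their change in entire sections (diamonds, mean of both doses), on each of the 4 treated arrays (circles dehydrated, squares LCM reference time). The medians of the 58 with at least 4-fold rises in entire sections lie between 2.60 and 3.18 on the 4 arrays, beside 2.99 in entire sections, and those of all 7140 lie near 0.

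Dose was compared between the 4 treated arrays, in a fit that also held the 2 untreated arrays. These add to the spread but not to the difference between doses. No probe set was called between 0.54% and 0.29% CA (0 of 7389, 0%) by limma, and 203 had an unadjusted p under 0.05, 74 higher and 129 lower at 0.54%. In entire sections 79 of 7804 (1.01%) were called for the same dose difference, and those with the largest change there were looked up here. Across the 2029 bright probe sets, the difference between the doses in dehydrated sections correlated at 0.13 with that in LCM-reference-time sections (Spearman 0.13).

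Of those that were lower at 0.54%, j00738_s_at stepped down with dose in both preparations. The dehydrated arrays read 4410, 2262 and 665 at 0, 0.29 and 0.54% CA, and the LCM-reference-time arrays 2265, 749 and 335. Entire sections had medians of 3740.5, 1358.5 and 355.5. Its log2 difference between the doses was -1.50 ± 0.58 (SE) here, with a limma adjusted p of 1 and an unadjusted p of 0.0448, and -1.86 in entire sections. The other, rc_ai175959_at, read 41, 58 and 10 in dehydrated and 18, 35 and 20 in LCM-reference-time sections, a log2 difference of -1.46 ± 0.58 between the doses (limma adjusted p 1).

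Both probe sets with the largest rise from 0.29 to 0.54% in entire sections showed that gap in LCM-reference-time sections. The first, rc_aa875269_at, read 0, 13 and 191 there, but 13, 298 and 238 in dehydrated sections. The second, m15114_g_at, read 6, 10 and 111 there and 10, 90 and 108 in dehydrated sections. In dehydrated sections the 0.29% array was thus already close to the 0.54% array. Their log2 differences between the doses were 2.02 ± 0.97 and 2.15 ± 0.88 (SE), with limma adjusted p of 1 for both, and 2.24 and 2.20 in entire sections. Whether the dose difference itself differs between the preparations was not tested, with 1 array per dose.

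Last, the mean CA effect on the 6 arrays was tested against that in entire sections. In the fit of 15 groups, limma called 355 of 7389 probe sets (4.8%), 138 with a more positive and 217 with a more negative effect here. Without the untreated LCM-reference-time array the effect is that of dehydrated sections alone, and 38 were called, 25 more positive and 13 more negative. Without the untreated dehydrated array it is that of LCM-reference-time sections alone, and 861 were called. Many calls were dim. Of the 355, 228 were at the floor on at least 3 of the 6 arrays. Above it on all 6 were 48, beside 3353 of all 7389. Of the same 355, 227 did not have the same sign in both preparations. The latter includes differences of 0, and among all 7389 the same was true of 4271. Mixed signs were thus not much more frequent among the calls than among all tested. The effect had the opposite sign to entire sections for 147, the same sign and a larger size for 114, and the same sign and a smaller size for 2. The remaining 92 were at the floor on every entire-section array. Of the 355, 47 were called in entire sections at one dose or the other, 34 of them among the 147. The 147 are thus not a count of reversals. They include effects near 0 here, such as that of af072411_at (log2 -0.08, beside 3.44 in entire sections).

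The probe sets below were above the floor on all 6 and on all entire-section arrays, and were picked after their values had been seen. The level of af076183_at was 114, 684 and 636 on the dehydrated arrays at 0, 0.29 and 0.54% CA, and 140, 787 and 1216 on the LCM-reference-time arrays. Both untreated arrays were below all 4 treated ones, while entire sections were flat with medians of 380.5, 360.5 and 340.5. The untreated arrays were alike in deposited intensity only. Their normalized log2 values were 6.62 in dehydrated and 8.43 in LCM-reference-time sections, beside 9.20 to 10.4 on the treated arrays. The effects differed by 2.35 ± 0.64 (SE) on the log2 scale, with a limma adjusted p of 0.0203. That p was 0.252 without the untreated LCM-reference-time array (difference 2.74), 0.144 without the untreated dehydrated one (1.95), and 0.0526 when only probe sets with a mean intensity of at least 66 were tested. A second probe set of the same accession, af076183_g_at, did not share the pattern. It read 32, 87 and 51 on the dehydrated and 41, 38 and 39 on the LCM-reference-time arrays, and its effect was not called different from entire sections (-1.22 ± 1.30, SE; limma adjusted p 0.739).

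The level of rc_ai232783_s_at was 175, 357 and 421 in dehydrated and 29, 282 and 293 in LCM-reference-time sections. Here too the untreated arrays were the lowest, and all 6 values lay below the entire-section medians of 702.5, 728.5 and 570.5. The effects differed by 2.25 ± 0.52 (SE), with a limma adjusted p of 0.00426, or 0.724 without the untreated LCM-reference-time array (difference 1.38).

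The opposite case was af072411_at, which rose with dose in entire sections, from a median of 25.5 to 225 and 543.5. On the 6 arrays it read 14, 16 and 5 (dehydrated) and 6, 6 and 13 (LCM reference time). No array of either preparation reached the lowest treated value of entire sections, 76. The effects differed by -3.53 ± 0.76 (SE), with a limma adjusted p of 0.00185, or 0.108 without the untreated LCM-reference-time array (difference -3.72). All 6 values were near background, so the size of the difference is poorly measured, and with a floor of 20 or a mean intensity of at least 66 the probe set was not tested. A second probe set of the accession, af072411_g_at, read 17, 49 and 45 on the dehydrated and 12, 22 and 48 on the LCM-reference-time arrays. Its treated arrays were all above its untreated ones, beside entire-section medians of 48.5, 270.5 and 673.5, and its effect differed from entire sections by -1.59 ± 0.57 (SE; limma adjusted p 0.122).

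For af081144_s_at the difference of -1.66 ± 0.49 (SE; limma adjusted p 0.0403) came with 1 low array. The dehydrated arrays read 208, 117 and 6 and the LCM-reference-time arrays 82, 114 and 126, beside entire-section medians of 88.5, 146 and 100.5. The rise in LCM-reference-time sections was in deposited intensity only, with normalized log2 values of 7.53, 7.59 and 7.29. Without the dehydrated array at 0.54% the difference was -0.83, with a limma adjusted p of 0.567, and without the untreated dehydrated array it was -0.45, with 0.757. The adjusted p was 0.169 on the centred deposited scale, 0.0741 with a floor of 20, 0.0796 at a mean intensity of at least 66 and 0.0745 without the LCM-reference-time array at 0.54%.

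**Figure D5:**
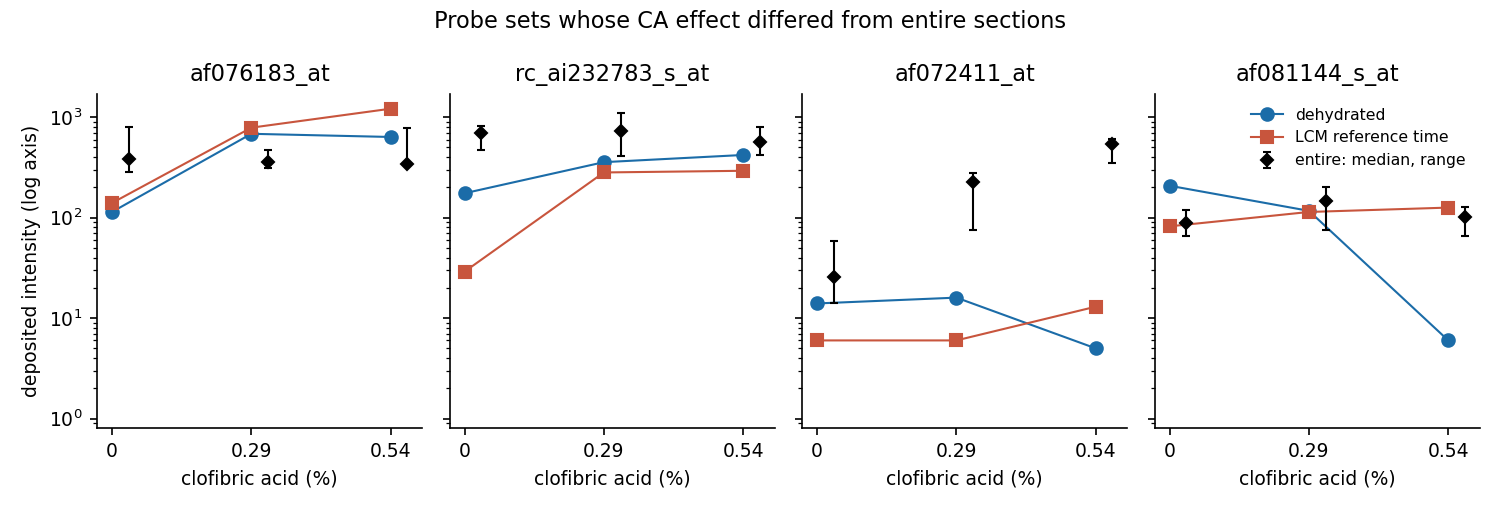
Deposited intensity (log axis) of 4 probe sets against CA dose on the 6 arrays (circles dehydrated, squares LCM reference time, 1 array each) and in entire sections (diamonds, median; bars, lowest to highest of 8, 8 and 6 arrays). The first 2 are lowest on the untreated arrays of the 6 and flat in entire sections, the third is high with CA in entire sections and at most 16 on the 6 arrays, and the last is low on 1 array (6).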

How the data were processed

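The authors deposited 1 intensity per probe set and array, on a linear scale, for 8799 probe sets, 59 of them controls, per the file headers and values. The labels and files name no scanner software, scaling or presence calls. Between 20.6% and 30.1% of the deposited intensities of an array were below 0. Precision is limited by the number of arrays.

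Intensities were raised to a floor of 4, the 10th percentile of the positive values. They were converted to log2 and the deposited arrays were quantile normalized between all 52 over the 8740 non-control probe sets. Probe sets above the floor on at least 1 of the 6 arrays were tested by the two-sided moderated test of limma 3.58.1 (R 4.3.3), Benjamini-Hochberg adjusted over all tested. Calls had an adjusted p under 0.05. The first comparison was fitted on the 6 arrays with the preparation as a block, and as an alternative with the spread of all 15 groups. The difference from entire sections used all 15 groups. Plain intensities in the text are the deposited values. The procedure was tested on simulated data. All simulated arrays were given the spread of the 15 groups, so the assumption about the lone arrays could not be checked that way. Plots used matplotlib 3.10.9 in Python 3.11.15.

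The arrays, lists and tests were chosen with earlier results of these data known. Gene lists, cell type markers, promoter motifs and protein ends had been planned by gene symbol. They were not used, because 0 accessions inside the probe set identifiers matched the gene table used here. Instead, up to 2 probe sets higher and 2 lower are given for each comparison. For treatment these had the smallest p with a mean of at least 100 in the higher group, for dose the largest called differences in entire sections, and for the difference from entire sections the largest effects under the same minimum. Alternatives were the deposited scale centred on each array's median, quantile normalization between the 6 arrays, a floor of 20, a mean intensity of at least 66, no filter, no preparation block, dose as a factor, a trended, robust variance prior, fewer groups, and leaving out each array.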

Additional observations from a re-analysis of the deposited data

Results flagged for a closer look

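On the 0.29% LCM-reference-time array, rc_aa875269_at had a normalized log2 intensity of 4.06, far below the other 3 treated arrays. The 5S rRNA control read 587 on the same array, far above the other 5 arrays, which had 10 to 152. These were 2 of 20 sets of values examined for a single distant array, where chance alone gives about 1 in 20.

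The CA effect differed from that in entire sections by a direct test for the probe sets picked above: by 2.35 for af076183_at, 2.25 for rc_ai232783_s_at, -3.53 for af072411_at and -1.66 for af081144_s_at, on the log2 scale. The first 3 differences lost their call without the untreated LCM-reference-time array, at 2.74, 1.38 and -3.72, and that of af076183_at also without the untreated dehydrated one. The call for af081144_s_at was lost without the untreated dehydrated array or either array at 0.54%. For af076183_at and af072411_at a second probe set of the same accession was not called different.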

How the results depend on the processing

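The treatment count of 1 on the 6 arrays was 15 on the centred deposited scale (13 higher, 2 lower), 17 with a floor of 20 (13 higher, 4 lower), 25 at a mean intensity of at least 66 (24 higher, 1 lower), 11 of 8740 with no filter (1 higher, 10 lower), 0 with dose as a factor, 74 with a trended, robust prior (54 higher, 20 lower) and 534 with all 15 groups. It was 1 with quantile normalization between the 6 arrays or no preparation block. Leaving out single arrays gave 0 to 515, with 515 (148 higher, 367 lower) without the untreated dehydrated array. Without an untreated array the effect is that of 1 preparation and the same-sign rule cannot apply. In the fit of 15 groups, alternatives chosen after seeing the data gave 168 and 1238 without an untreated array, 280 when centred (227 higher, 53 lower) and 524 with a floor of 20. The preparation count of 0 became 337 when centred, 86 with a floor of 20 and 30 at 66. The interaction count of 0 became 424 with a floor of 20 and 4 at 66, and it could not be fitted without an untreated array. The difference from entire sections (355) was 41 when centred (61.0% more positive, against 38.9%), 21 at 66 (20 more positive, 1 more negative), 1154 with only entire sections and the 6 arrays, and 38 to 861 without single arrays. The dose count was 0 under each of its 9 alternatives. The cause of these changes was not tested. Of the values of single probe sets, 108 kept their side of the threshold and 17 lost and 22 gained a call, and none changed direction. No paired analysis was possible because the labels give these 6 arrays no replicate number, so the preparation was the only block used. With the floor at 4, falls of dim probe sets are bounded.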
